A study of Saccharomyces cerevisiae with 18 samples.

Results

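The mitochondrial genome of *Saccharomyces cerevisiae* is a small, very AT-rich DNA that encodes a handful of respiratory chain and ATP synthase subunits, 1 ribosomal protein, the ribosomal RNAs, the tRNAs and the RNA of RNase P. It is transcribed by its own RNA polymerase, Rpo41 with the factor Mtf1, from promoters with a short conserved motif, and most transcripts carry several genes that are cut apart afterwards. *COX1*, *COB* and the 21S rRNA hold introns, several of which contain reading frames of their own for maturases and endonucleases. The genes were taken as all rows of the count table with an identifier that starts with Q0, together with the mitochondrial tRNAs (identifiers of the form tX(NNN)Q), which gave 55 of 7127 genes. They comprised 8 mRNAs, 2 rRNAs, 24 tRNAs, *RPM1* (the RNase P RNA), 10 intron reading frames and 10 other reading frames.

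RNA was measured in BY4741 cells (MATa his3Δ1 leu2Δ0 met17Δ0 ura3Δ0) that were *snf2Δ*, *snf5Δ* or wild type (wt) at those loci. Each strain was grown in YPD, with and without a further 30 min in 3 mM cysteine (YPD+Cys), with 3 libraries in each of the 6 groups. *SNF2* encodes the ATPase and *SNF5* a core subunit of the nuclear chromatin remodeler Swi-Snf. Each mutant was 1 KanMX4 deletion strain, and all strains shared the auxotrophic deletions. Ribosomal RNA was depleted before library preparation. *SNF2* averaged 3.24 ± 1.99 CPM (counts scaled to a common library size with edgeR's TMM factors) in *snf2Δ* and 209 ± 26.5 CPM in wt in YPD, and *SNF5* averaged 0.081 ± 0.14 CPM in *snf5Δ* and 50.9 ± 4.97 CPM in wt (SD, n = 3 each). The libraries held 1329986 to 4845830 counts in genes. Reads that mapped to more than 1 place, which were not counted, made up 53.5% and 44.6% in *snf2Δ* YPD replicates 2 and 3 and 71.4% in *snf5Δ* YPD replicate 3, against at most 28.6% elsewhere.

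The sequences below show what these genes are made of, since levels went with base composition. Of the 55 genes, 46 were in the RefSeq annotation of assembly R64, and all 46 had the exon length used by the authors. The mitochondrial chromosome is 85779 bases long with 17.1% G+C. *OLI1* (subunit c of ATP synthase, chrM:46723-46953, plus strand, 33.3% G+C) had the highest level per length. *ATP8* (subunit 8 of ATP synthase, chrM:27666-27812, plus strand, 19.0% G+C) had almost no counts. The first 120 bases of *VAR1* (the ribosomal protein, chrM:48901-49020, plus strand) have 6.67% G+C, and the whole gene has 10.4%. The 2 tRNAs that were lower in *snf5Δ* are shown with the anticodon in capitals: tS(UGA)Q2 lies at chrM:48201-48290 and tP(UGG)Q at chrM:731-802, both on the plus strand.
OLI1: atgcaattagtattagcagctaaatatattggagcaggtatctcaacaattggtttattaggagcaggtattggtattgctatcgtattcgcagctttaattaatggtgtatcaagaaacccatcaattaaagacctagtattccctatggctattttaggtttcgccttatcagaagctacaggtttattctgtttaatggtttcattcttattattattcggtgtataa
ATP8: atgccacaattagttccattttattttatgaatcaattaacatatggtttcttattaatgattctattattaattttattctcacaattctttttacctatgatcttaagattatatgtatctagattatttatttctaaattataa
VAR1, first part: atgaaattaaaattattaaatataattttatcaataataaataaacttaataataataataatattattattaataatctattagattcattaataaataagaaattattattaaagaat
tS(UGA)Q2: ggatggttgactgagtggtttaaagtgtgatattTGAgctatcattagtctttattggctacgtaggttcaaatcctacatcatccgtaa
tP(UGG)Q: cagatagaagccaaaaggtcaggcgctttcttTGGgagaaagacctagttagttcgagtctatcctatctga

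The motif ATATAAGTA, the conserved core of mitochondrial promoters in yeast, was searched on both strands and had 11 matches on the plus strand and 3 on the minus strand. Windows of 33 bases around 5 of the matches are shown with the motif in capitals, because these matches lie ahead of the rRNAs and most of the mRNAs. The motifs begin 84 bases before the 15S rRNA (chrM:6450-6482), 469 before *COX1* (chrM:13337-13369), 495 before tE(UUC)Q, which precedes *COB* (chrM:34866-34898), 574 before *OLI1* (chrM:46137-46169) and 9 before the 21S rRNA (chrM:57988-58020), all on the plus strand of R64. The 600 bases ahead held a match for 7 of 37 distinct gene starts on the plus strand (18.9%), where a start shared by several gene models counts once, and 7.04% of all windows of that length on the plus strand held one. A match is a description of the letters and does not show that transcription starts there.
15S rRNA: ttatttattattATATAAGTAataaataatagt
COX1: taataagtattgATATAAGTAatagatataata
tE(UUC)Q: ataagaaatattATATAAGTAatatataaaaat
OLI1: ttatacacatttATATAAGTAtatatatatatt
21S rRNA: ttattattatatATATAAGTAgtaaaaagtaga

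Mitochondrially encoded RNA took on average a larger share of the counts in genes in both mutants than in wt. The share was 9.50%, 8.91% and 8.15% in *snf2Δ* in YPD, 8.60%, 8.18% and 7.04% in *snf5Δ* in YPD, and 4.47%, 7.08% and 5.08% in wt in YPD. All 3 *snf2Δ* libraries lay above all 3 wt libraries, while the lowest *snf5Δ* library lay just under the highest wt library. In YPD+Cys the share was 8.69%, 9.16% and 7.59% in *snf2Δ*, 9.05%, 5.88% and 8.18% in *snf5Δ*, and 5.02%, 6.06% and 4.93% in wt. Again the *snf2Δ* libraries lay above wt and 1 *snf5Δ* library, replicate 2, lay within the wt range. The means were 8.85% ± 0.676 in *snf2Δ*, 7.94% ± 0.809 in *snf5Δ* and 5.54% ± 1.36 in wt in YPD (SD, n = 3 each). The ratio of the means to wt was 1.60-fold for *snf2Δ* and 1.43-fold for *snf5Δ* in YPD, and 1.59-fold and 1.44-fold in YPD+Cys. On the log2 scale these were 0.68 ± 0.21, 0.52 ± 0.22, 0.67 ± 0.12 and 0.53 ± 0.21 (standard error). With libraries scaled by their totals alone, as in a share, the median over all genes tested was also above 0. It was 0.26, 0.34, 0.18 and 0.23 in the same order, so part of each rise was shared with the typical gene. The share is a description and carries no p-value. RNA per cell was not measured, and a share also rises when other RNA falls. More mitochondria per cell, more RNA per mitochondrion and less of other RNA cannot be told apart.

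**Figure D1:**
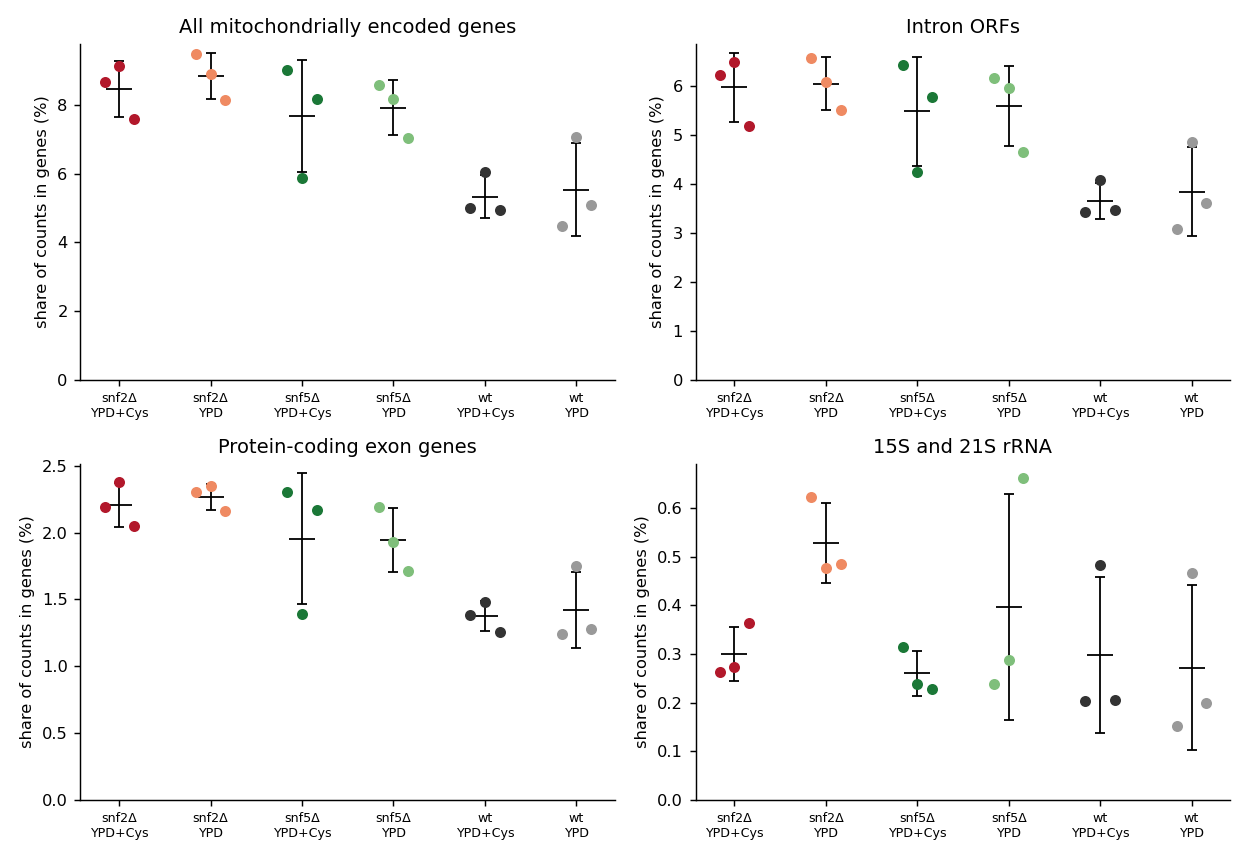
Share of all counts in genes (percent, y axis) held by the 55 mitochondrially encoded genes and by 3 of their classes in each of 18 libraries, by group (x axis). Points are libraries, and bars show the mean ± SD of 3. For all genes together the 6 *snf2Δ* libraries lie between 7.59% and 9.50%, and the 6 wt libraries between 4.47% and 7.08%.

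The share was carried by few genes. *AI1* and *AI2*, reading frames in the first 2 introns of *COX1* that encode maturases with reverse transcriptase activity, together held 63.4% to 70.4% of all mitochondrial counts in every library. The mRNAs held 23.6% to 27.8%, the rRNAs 2.78% to 9.42% and the 24 tRNAs 0.0121% to 0.0635%. The proportion of *AI1* and *AI2* was close between strains, at a mean of 65.6% of mitochondrial counts in *snf2Δ*, 67.6% in *snf5Δ* and 65.6% in wt in YPD. The rRNAs averaged 5.95%, 5.24% and 4.63% of them in the same order. For the tRNAs, all low in counts, the means were 0.0247%, 0.0189% and 0.0516%, with both mutants below wt. Without *AI1* and *AI2* the share was still 1.59-fold that of wt in *snf2Δ* and 1.33-fold in *snf5Δ* in YPD. Per library, *AI1* had 39334, 35692 and 28217 CPM in *snf2Δ* in YPD, 34393, 31912 and 22589.5 CPM in *snf5Δ*, and 19617, 34235 and 23165 CPM in wt. The wt replicate 2 library lay within the range of the mutants. The log2 fold change of *AI1* in YPD was 0.42 ± 0.26 for *snf2Δ* and 0.21 ± 0.26 for *snf5Δ* (standard error), with adjusted p of 0.276 and 0.599 by edgeR's quasi-likelihood test with Benjamini-Hochberg adjustment over 5757 genes.

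Levels per length differed over several orders of magnitude among genes that share transcripts. To keep overlapping gene models apart, counts were divided by the bases that belong to no other model, since *COX1* and *COB* exons are also part of the intron reading frame models and reads there were not counted. On this scale, without TMM, *OLI1* averaged 22102 CPM per kb over the 18 libraries, *AI1* 12737, *AI2* 8106, *COX2* 5782, *COX1* 4505, *COX3* 3514, *ATP6* 3046 and *COB* 2877. *COX1*, *COX2* and *COX3* encode the core of cytochrome c oxidase, *COB* encodes cytochrome b and *ATP6* encodes subunit a of ATP synthase. The 15S rRNA had 856 and the 21S rRNA 610.5, in libraries made after depletion of ribosomal RNA. How far the depletion set these values was not tested. *AI4*, *AI3*, *SCEI* (the homing endonuclease in the 21S intron), *BI4* (the maturase in the fourth intron of *COB*), *AI5_BETA* and *BI2* lay between 677 and 120 CPM per kb. *VAR1* had 18.1 and *BI3* 2.43. *ATP8* had 4.65, with 0 to 6 counts per library, although *ATP6* is the next gene along the same strand. *RPM1* was listed at 0 in all libraries, but the reads that RSEM shared out between overlapping models gave it 67.5 to 481 expected counts, against 8.48 to 60.9 for the overlapping Q0297. Of the 24 tRNAs, 2 had a mean of at least 10 counts per library, and all tRNAs together had 14 to 180 counts per library.

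**Figure D2:**
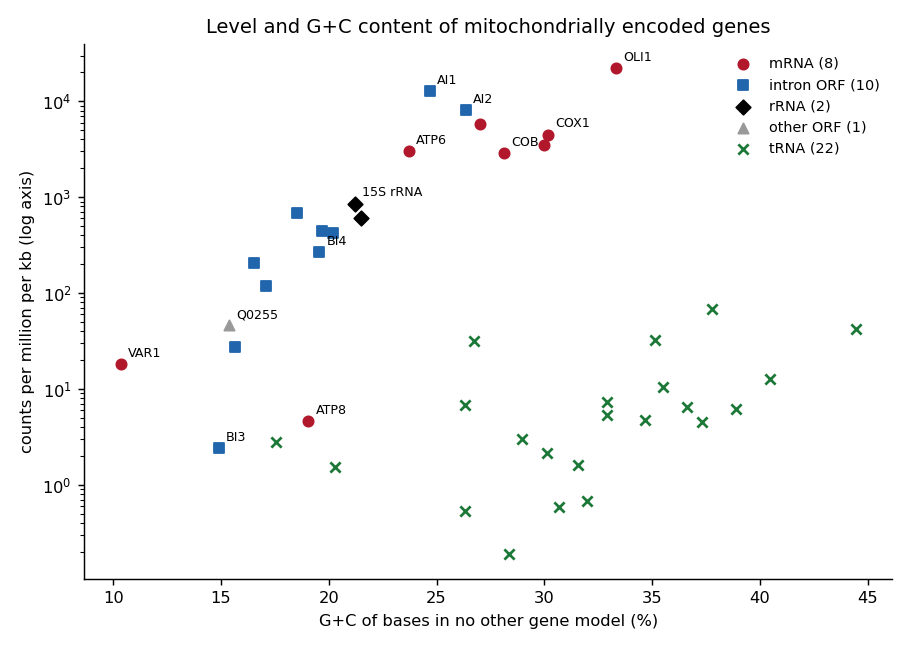
Mean level over 18 libraries (CPM per kb of unshared bases, log axis) against the G+C content of those bases (percent) for the annotated genes with any count. Each point is a gene, and numbers in the legend are genes per class. The mRNAs and intron reading frames run from *BI3* and *ATP8* at 2.43 and 4.65 to *OLI1* at 22102, while the tRNAs lie lower at the same G+C.

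The level went with G+C content. Spearman's rho between the 2 was 0.90 over 21 genes (mRNAs, intron reading frames, rRNAs and Q0255), 0.79 over the 8 mRNAs and 0.55 over the 24 tRNAs. The genes share libraries and partly transcripts, so these are descriptions with no p. The part of RNA level, read coverage and mapping of AT-rich reads in this relation was not tested.

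The mRNAs and intron reading frames were tested one by one, and few passed. Of the 55 genes, 25 passed the low-count filter and were tested: 7 of 8 mRNAs (all but *ATP8*), both rRNAs, all 10 intron reading frames, Q0182, Q0255 and 4 tRNAs. In *snf2Δ* against wt in YPD 1 of 25 was higher (*COX2*) and 1 lower (*BI3*), where 7.89% of all genes tested were higher and 11.8% lower. In *snf5Δ* in YPD 0 were higher and 3 lower (*BI4*, tP(UGG)Q and tS(UGA)Q2), with 12.0% and 15% of all genes. In each mutant in YPD 6 of the 25 had an unadjusted p under 0.05 by edgeR, a threshold at which the share of all genes is not given here. In YPD+Cys 1 was higher (*ATP6*) and 0 lower in *snf2Δ*, with 7.73% and 11.6% of all genes, and 0 were higher and 1 lower (tS(UGA)Q2) in *snf5Δ*, with 9.73% and 11.3%. None of these counts by edgeR exceeds the share of all genes called in that direction. DESeq2 called 1 mitochondrial gene higher and 2 lower in *snf2Δ* in YPD (6.82% and 11.2% of all genes it tested), 0 and 5 in *snf5Δ* in YPD (10.7% and 13.5%), 4 and 0 in *snf2Δ* in YPD+Cys (6.83% and 11.0%) and 0 and 1 in *snf5Δ* in YPD+Cys (9.21% and 10.7%). DESeq2, which filters low counts itself, gave an adjusted p for 38 of the 55 mitochondrial genes, and its counts are out of those 38. By edgeR the median log2 fold change over the 25 was -0.02 for *snf2Δ* and -0.24 for *snf5Δ* in YPD, and 0.23 and -0.09 in YPD+Cys, against medians between -0.02 and 0.02 over all genes.

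The scaling set how many genes were called. TMM factors lay between 0.962 and 1.18 in the mutants and between 0.819 and 0.958 in wt. When libraries were scaled by their totals alone, the median of all genes moved to between 0.18 and 0.34 on the log2 scale, and 6 and 5 of the 25 genes were called higher in *snf2Δ* and *snf5Δ* in YPD and 7 and 5 in YPD+Cys. Of all genes 20.9% and 33.8% were then called higher in YPD and 13.5% and 20.2% in YPD+Cys. At that scaling 68.0% to 84.1% of all calls were higher, against at most 46.2% with TMM. The fold changes given here are relative to the bulk of genes.

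**Figure D3:**
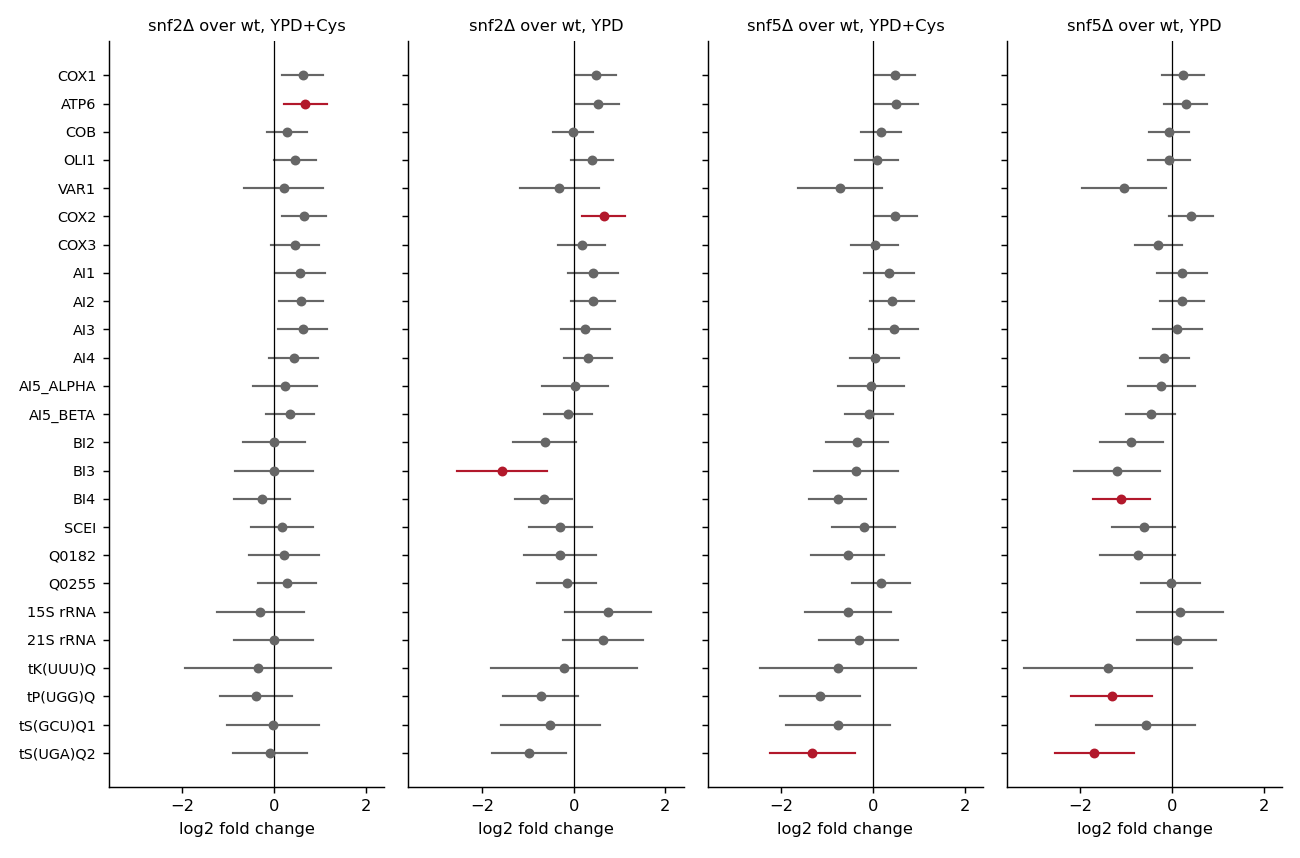
Log2 fold change over wt (x axis, point) with its 95% confidence interval (line) for the 25 mitochondrially encoded genes tested, in 4 comparisons from 1 edgeR fit of 18 libraries. Red marks genes with an adjusted p under 0.05. The calls are *ATP6*, *COX2* and *BI3* in *snf2Δ*, and *BI4*, tP(UGG)Q and tS(UGA)Q2 in *snf5Δ*.

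Among the mRNAs, *COX2* was higher in *snf2Δ* in YPD and *ATP6* in *snf2Δ* in YPD+Cys. *COX2* had 5369.9, 5597 and 4513 CPM in *snf2Δ* and 2725, 4249.8 and 2859 CPM in wt in YPD. All *snf2Δ* libraries lay above all wt libraries, and wt replicate 2 stood apart from the other wt libraries. *COX2* rose by 0.65 ± 0.22 on the log2 scale (standard error, adjusted p = 0.0488, edgeR). In YPD+Cys the change was 0.65 ± 0.22 (adjusted p = 0.0527), just outside the threshold. *ATP6* had 2892, 3056 and 2256 CPM in *snf2Δ* and 1672, 1820.1 and 1649 CPM in wt in YPD+Cys, with no overlap. It rose by 0.67 ± 0.22 (adjusted p = 0.0417, edgeR), and its change in YPD was 0.53 ± 0.22 (adjusted p = 0.108). *COX1* had log2 fold changes of 0.48 ± 0.21 in YPD and 0.61 ± 0.21 in YPD+Cys (adjusted p = 0.126 and 0.0531) and *OLI1* 0.40 ± 0.22 and 0.45 ± 0.22 (adjusted p = 0.225 and 0.174). *COB* (-0.02 ± 0.20), *COX3* (0.17 ± 0.24) and *VAR1* (-0.31 ± 0.41) lay nearer 0 or below in *snf2Δ* in YPD. The 95% interval of *COX1* in YPD was 0.03 to 0.93 and that of *COB* -0.45 to 0.41.

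In *snf5Δ* no mRNA was called. *COX2*, *ATP6* and *COX1* had log2 fold changes of 0.41 ± 0.22, 0.30 ± 0.22 and 0.23 ± 0.21 in YPD, while *OLI1* had -0.07 ± 0.22, *COX3* -0.30 ± 0.24 and *VAR1* -1.05 ± 0.43. For the 7 mRNAs the adjusted p lay between 0.082 for *VAR1* and 0.855 for *OLI1* (edgeR). *VAR1* had 22.6, 12.1 and 9.58 CPM in *snf5Δ* and 32.9, 43.0 and 19.2 CPM in wt in YPD, and the groups overlapped. In YPD+Cys 6 of the 7 mRNAs had positive values in *snf5Δ*, up to 0.50 ± 0.22 for *ATP6*, and *VAR1* had -0.72 ± 0.43.

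The calls on mRNAs were sensitive to single libraries. The wt YPD replicate 2 library had the highest share of mitochondrial counts of all wt libraries. Without it 6 genes were called higher (*COX1*, *COX2*, *ATP6*, *AI2* and both rRNAs) and 0 lower in *snf2Δ* in YPD, and 2 higher (*COX2* and *ATP6*) and 1 lower in *snf5Δ*. That fit called 8.56% of the whole table higher in *snf2Δ* (10.6% lower) and 10.7% higher in *snf5Δ* (11.6% lower). Without wt replicate 1, wt replicate 3, *snf2Δ* replicate 1 or *snf2Δ* replicate 2 in YPD 0 were called higher in *snf2Δ*. The *ATP6* call in YPD+Cys was likewise lost without any 1 of 5 of the 6 libraries compared, with adjusted p up to 0.127, and leaving out *snf2Δ* replicate 3 gave 2 genes called higher, with 6.24% of all genes. In *snf5Δ* in YPD+Cys 3 genes were called higher without replicate 2 of that group, its library with the lowest share, with 7.34% of all genes.

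**Figure D4:**
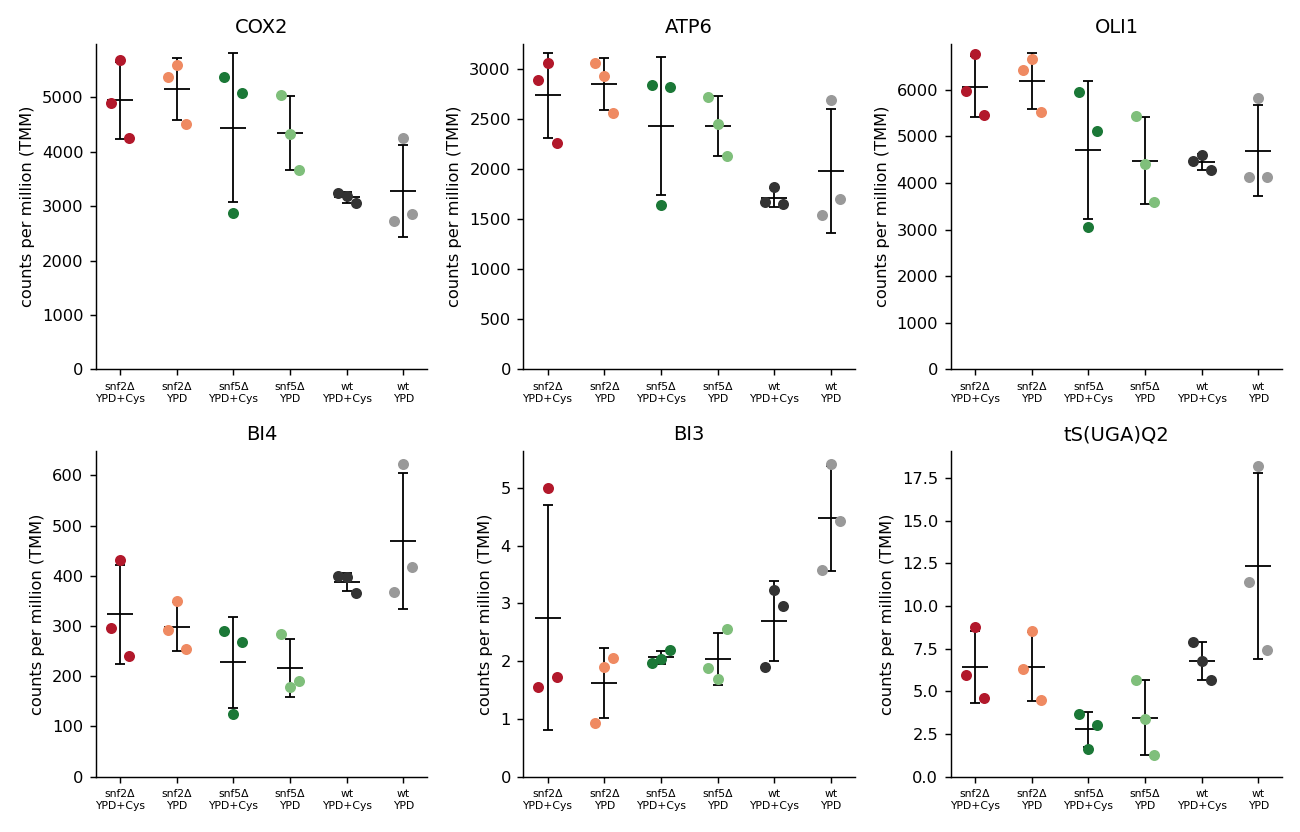
Level (TMM-scaled CPM, y axis from 0) of 6 genes in each library by group (x axis), with the mean ± SD of 3 libraries as bars. The *snf2Δ* libraries do not overlap with wt for *COX2* in YPD and *ATP6* in YPD+Cys, where they are higher, or for *BI3* in YPD, where they are lower. *OLI1* has the highest level per length, and *BI4* and tS(UGA)Q2 are lower in *snf5Δ* than in wt in YPD.

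Of the intron reading frames of *COB*, *BI4* was lower in *snf5Δ* and *BI3* in *snf2Δ*, both in YPD. *BI4* had 284, 178 and 189.7 CPM in *snf5Δ* and 368, 623 and 417 CPM in wt in YPD, with no overlap. It fell by 1.11 ± 0.29 on the log2 scale (adjusted p = 0.01, edgeR). In *snf5Δ* in YPD+Cys its change was -0.77 ± 0.29 (adjusted p = 0.0704), and in *snf2Δ* it was -0.65 ± 0.29 in YPD and -0.26 ± 0.29 in YPD+Cys (adjusted p = 0.128 and 0.579). *BI3*, a maturase reading frame with only 4 to 20 counts per library, had 0.931, 1.90 and 2.05 CPM in *snf2Δ* and 3.58, 5.41 and 4.44 CPM in wt in YPD. It fell by 1.56 ± 0.47 (adjusted p = 0.025, edgeR), but from expected counts its change was -0.52 (adjusted p = 0.178). The *BI3* call was also lost without *snf2Δ* replicate 1, wt replicate 2 or wt replicate 3 (adjusted p = 0.16, 0.0901 and 0.0557). Without the libraries over 40% multimapping, which leaves 1 *snf2Δ* YPD library, assumed to vary like the other groups, its change was -2.21 (adjusted p = 0.0701). *BI2* (-0.89 ± 0.33, adjusted p = 0.0525) and *BI3* (-1.20 ± 0.44, adjusted p = 0.0514) lay just outside the threshold in *snf5Δ* in YPD. The *BI4* call was lost without *snf5Δ* replicate 2 (adjusted p = 0.052), without wt replicate 2 (adjusted p = 0.071) and without the libraries over 40% multimapping (adjusted p = 0.0593).

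The ratio of intron to exon counts within a library does not depend on scaling. *BI4* had 213, 164 and 197 counts per 1000 *COB* counts in *snf5Δ* in YPD, 234, 293 and 234 in *snf2Δ*, and 389, 418 and 367 in wt. Every mutant library lay below every wt library, and the *snf5Δ* libraries lay below the *snf2Δ* libraries, a difference that was not tested. In YPD+Cys the ratio averaged 191 ± 27.4 in *snf5Δ*, 254 ± 41.0 in *snf2Δ* and 375 ± 25.8 in wt (SD, n = 3 each), again with no overlap between either mutant and wt. The ratio of geometric means to wt was 0.486-fold in *snf5Δ* and 0.645-fold in *snf2Δ* in YPD and 0.506-fold and 0.674-fold in YPD+Cys. The exact two-sided permutation test gave p = 0.1 in each of these 4 comparisons, the smallest that 3 against 3 libraries allow. *AI5_BETA*, a reading frame in one of the later introns of *COX1*, did not overlap with wt either, with 65.3 ± 3.05 counts per 1000 *COX1* counts in *snf5Δ*, 69.7 ± 7.20 in *snf2Δ* and 106 ± 6.75 in wt in YPD (SD, n = 3 each; exact permutation p = 0.1 for both, the smallest possible). In YPD+Cys it was 0.672-fold that of wt in *snf5Δ* and 0.822-fold in *snf2Δ*. *AI1* overlapped between strains relative to *COX1*: it had 10420 ± 366 counts per 1000 *COX1* counts in *snf5Δ*, 10177 ± 731 in *snf2Δ* and 10589 ± 459 in wt in YPD (SD, n = 3 each; exact permutation p = 0.7 and 0.6). The other reading frames varied. *BI2* per *COB* was 0.585-fold that of wt in *snf5Δ* and 0.654-fold in *snf2Δ* in YPD, but overlapped with wt in *snf2Δ* in YPD+Cys (0.803-fold). *AI3*, *AI4* and *AI5_ALPHA* per *COX1* overlapped with wt in both mutants in YPD, at 0.77-fold to 0.957-fold. In YPD+Cys *AI5_ALPHA* did not overlap with wt in *snf5Δ* (0.672-fold) or *snf2Δ* (0.761-fold). *AI4* did not overlap in *snf5Δ* (0.728-fold) but did in *snf2Δ* (0.862-fold), and *AI3* overlapped in both (0.981-fold and 0.987-fold). *SCEI* per 21S rRNA was 0.484-fold in *snf2Δ* in YPD with no overlap, and 1.04-fold in *snf2Δ* in YPD+Cys. Of 36 comparisons (9 ratios, each mutant and medium) 15 did not overlap, and their exact permutation p of 0.1 became 0.24 after Benjamini-Hochberg adjustment over the 36. The 36 are not separate, since ratios to the same host gene share its counts and both mutants share the wt libraries. The same count over all pairs of genes was not made. The ratios plotted were picked after the values had been seen, and both genes of a pair were counted on their unshared bases alone.

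**Figure D5:**
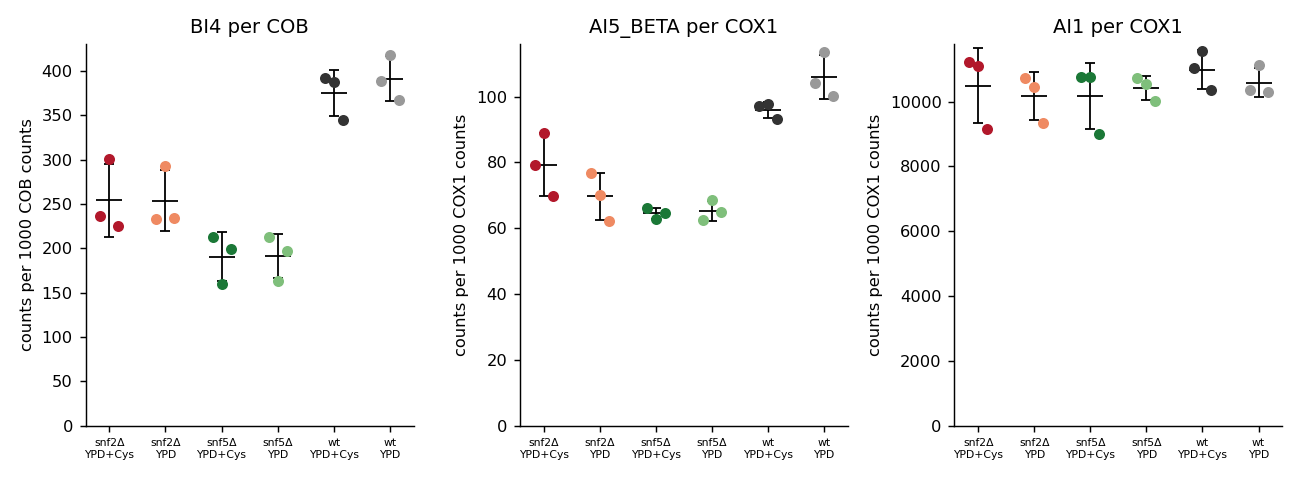
Counts of an intron reading frame per 1000 counts of its host gene (y axis from 0) in each library by group (x axis), with the mean ± SD of 3 libraries as bars. *BI4* per *COB* lies between 160 and 301 in the 12 mutant libraries and between 345 and 418 in the 6 wt libraries, while *AI1* per *COX1* overlaps in all groups.

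The fold changes of the mitochondrial genes went with G+C content once the tRNAs were set aside. Over the 20 annotated mRNAs, intron reading frames, rRNAs and Q0255 that were tested, Spearman's rho between G+C content and log2 fold change was 0.63 in *snf2Δ* and 0.60 in *snf5Δ* in YPD and 0.53 and 0.56 in YPD+Cys. With the 4 tRNAs it was 0.14, 0.03, -0.02 and -0.01. Over 5516 nuclear genes it was -0.07, 0.03, -0.07 and -0.02. Both comparisons within a medium share the wt libraries, and the part of base composition in the *BI4* and *AI5_BETA* ratios was not tested. Level, which itself went with G+C content in these classes, was not separated from it here.

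Of the 4 tRNAs tested, all low in counts, 2 were lower in *snf5Δ*. tS(UGA)Q2, a serine tRNA between *OLI1* and *VAR1*, had 21, 14 and 2 counts in *snf5Δ* and 35, 64 and 20 in wt in YPD. These are 5.66, 3.39 and 1.28 CPM in *snf5Δ* and 11.4, 18.2 and 7.39 CPM in wt, with no overlap. It fell by 1.70 ± 0.41 in YPD and by 1.32 ± 0.44 in YPD+Cys on the log2 scale (adjusted p = 0.00563 and 0.0398, edgeR). The YPD call was made under all 14 alternatives that gave a value, and the YPD+Cys call under 7 of 13. The YPD+Cys call was lost without *snf5Δ* replicate 2 or 3 or any of the 3 wt libraries (adjusted p up to 0.197). In *snf2Δ* its change was -0.97 ± 0.38 in YPD (adjusted p = 0.0879) and -0.09 ± 0.38 in YPD+Cys (adjusted p = 0.907). tP(UGG)Q, the proline tRNA at the start of the chromosome map, had 8, 8 and 3 counts in *snf5Δ* and 14, 25 and 9 in wt in YPD, with no overlap. It fell by 1.32 ± 0.41 (adjusted p = 0.0252, edgeR), a call lost when any of the 3 *snf5Δ* libraries or wt replicate 2 was left out (adjusted p up to 0.167). Without *snf5Δ* replicate 2 or wt replicate 2 in YPD 1 mitochondrial gene was called lower in *snf5Δ*, against 3, where 11.1% and 11.6% of all genes were. The tRNAs tS(GCU)Q1 and tK(UUU)Q had log2 fold changes of -0.58 ± 0.51 and -1.40 ± 0.86 in *snf5Δ* in YPD and were not called. Mature tRNAs are shorter than most library fragments, so these counts need not follow the tRNA pool.

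The rRNAs varied apart from the other genes. The 15S rRNA had 2781, 1901 and 1723 CPM in *snf2Δ*, 902, 1103 and 2304 CPM in *snf5Δ*, and 689, 2266 and 858 CPM in wt in YPD. The 21S rRNA had 3472, 2853 and 2714 CPM in *snf2Δ*, 1347, 1533 and 3324 CPM in *snf5Δ*, and 985, 3423 and 1398 CPM in wt in YPD. Both were high in the same YPD libraries, wt replicate 2 and *snf5Δ* replicate 3, the latter with 71.4% multimapping. In wt in YPD+Cys replicate 2 was again the highest, at 2308 and 2741 CPM. The part of ribosomal RNA depletion in these values was not tested. Neither rRNA was called in either mutant (adjusted p between 0.269 and 0.986, edgeR). Without wt YPD replicate 2, however, the 15S and 21S rRNA were called higher in *snf2Δ* in YPD, with log2 fold changes of 1.51 and 1.39 (adjusted p = 0.0263 and 0.0207). Over the 18 libraries the deviations of the 15S and 21S rRNA from their group means correlated at r = 0.97. With any other gene compared the 15S rRNA reached at most 0.41. *COX1* was most like *AI2* (r = 0.98), *OLI1* most like *COX2* (0.97), and *COB* and *ATP6* most like *COX2* (0.95 each). *VAR1* was equally like its neighbour tS(UGA)Q2 and Q0182 (0.87 each). These correlations describe libraries that share depth and scaling.

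Cysteine for 30 min changed 0 mitochondrial genes without a replicate block and 2 each in *snf2Δ* and wt with one. The share was 8.48% ± 0.807 in YPD+Cys and 8.85% ± 0.676 in YPD in *snf2Δ*, 7.70% ± 1.64 and 7.94% ± 0.809 in *snf5Δ*, and 5.34% ± 0.624 and 5.54% ± 1.36 in wt (SD, n = 3 each), and the libraries overlapped in each strain. By edgeR 0 of 25 genes were called in *snf2Δ*, *snf5Δ* and wt, where 0.643%, 0.903% and 0.434% of all genes were. At an unadjusted p under 0.05 there were 0, 0 and 1, and DESeq2 called 0 in each. The response of a mutant minus that of wt was called for 0 of 25 genes in both mutants, against 0.0869% of all genes for *snf2Δ* and 0.330% for *snf5Δ*, with 1 and 0 at an unadjusted p under 0.05 and 0 by DESeq2.

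Same-numbered libraries with and without cysteine deviated together within each strain, so the comparison was also fitted with the replicate number within strain as a block. In that fit 5.19% of all genes were called in *snf2Δ*, 3.60% in *snf5Δ* and 6.22% in wt, and 2, 0 and 2 of the 25 mitochondrial genes. In *snf2Δ* the 15S rRNA fell by 0.87 and the 21S rRNA by 0.77 on the log2 scale with the block (adjusted p = 0.0453 and 0.0175, edgeR). The 15S rRNA had 948, 1126 and 1407 CPM in YPD+Cys and the YPD values given above, with no overlap, but in *snf2Δ* 2 of the 3 YPD libraries were over 40% multimapping. Without those libraries, which leaves 1 *snf2Δ* YPD library, the changes in the fit with no block were -1.26 and -0.97, against -0.88 and -0.77 with all libraries in that fit. In wt *SCEI* fell by 0.50 and tS(UGA)Q2 by 0.86 with the block (adjusted p = 0.0409 and 0.0372). tS(UGA)Q2 had 7.90, 6.75 and 5.65 CPM in YPD+Cys and 11.4, 18.2 and 7.39 CPM in YPD, which overlapped.

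Several nuclear partners of the mitochondrial genes were called higher. The lists below were drawn up from textbook knowledge with earlier results of these data known. The genes named from them are among the called genes with the largest fold changes, so they exceed what is typical of a list. Of the nuclear subunits of ATP synthase, 12 of 14 were higher and 0 lower in *snf5Δ* in YPD, 13 of 14 higher in *snf5Δ* in YPD+Cys, 9 of 14 higher in *snf2Δ* in YPD+Cys and 1 of 14 in *snf2Δ* in YPD, read against the shares of all genes given above. *ATP19* (subunit k) rose by 1.07 ± 0.16 in *snf5Δ* and 0.95 ± 0.16 in *snf2Δ* in YPD (adjusted p = 0.000148 and 0.000692, edgeR). *ATP14* (subunit h) rose by 0.96 ± 0.15 in *snf5Δ* in YPD, against 0.30 ± 0.22 for its mitochondrially encoded partner *ATP6*. Of the nuclear subunits of cytochrome c oxidase, 6 of 9 were higher in *snf5Δ* and 4 of 9 in *snf2Δ* in YPD, and 8 of 9 and 5 of 9 in YPD+Cys, with 0 lower. *COX12* (subunit VIb) rose by 1.14 ± 0.22 and 0.95 ± 0.22 and *COX9* (subunit VIIa) by 0.89 ± 0.17 and 0.76 ± 0.17 in *snf5Δ* and *snf2Δ* in YPD. Of the nuclear subunits of the cytochrome bc1 complex, 5 of 9 were higher in *snf5Δ* in YPD and 7 of 9 in YPD+Cys, 3 of 9 in *snf2Δ* in YPD+Cys, and in *snf2Δ* in YPD 0 were higher and 1 lower (*CYT1*, cytochrome c1, which fell by 0.61 ± 0.19). *QCR2*, a core subunit, rose by 1.00 ± 0.14 in *snf5Δ* in YPD, where *COB* had -0.08 ± 0.20. The median log2 fold change in *snf5Δ* in YPD was 0.63 for the ATP synthase list, 0.69 for cytochrome c oxidase and 0.55 for the bc1 complex, against -0.07 for the 7 mitochondrially encoded mRNAs. Whether the nuclear and mitochondrial genes differed was not tested.

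The lists of factors that act on mitochondrial DNA and RNA held 8, 15 and 17 genes and 0 or 1 call in each direction and comparison with wt, which was not tested against the shares of all genes. Of 8 genes for mitochondrial transcription and DNA maintenance 0 were called in either mutant in YPD, and *MGM101*, needed for mitochondrial DNA repair, rose by 0.53 ± 0.18 in *snf5Δ* in YPD+Cys (adjusted p = 0.0413, edgeR). Of 15 genes for RNA processing, splicing and turnover, *MSS116*, an RNA helicase that acts in splicing of mitochondrial introns, fell by 0.39 ± 0.12 in YPD and by 0.46 ± 0.12 in YPD+Cys in *snf2Δ* (adjusted p = 0.0306 and 0.0116). In *snf5Δ* 0 of the 15 were called. A link between these genes and the intron ratios was not tested. *CBT1*, which acts in the processing of *COB* RNA, rose by 0.54 ± 0.18 in *snf2Δ* in YPD+Cys. Of 17 translational activators, *MSS51*, needed for translation of *COX1*, fell by 0.34 ± 0.10 and 0.35 ± 0.09 in *snf2Δ* in YPD and YPD+Cys, and *CBS1*, needed for translation of *COB*, rose by 0.78 ± 0.25 in *snf2Δ* and 0.82 ± 0.26 in *snf5Δ* in YPD+Cys. Of 65 mitochondrial ribosomal proteins, the partners of *VAR1* and the rRNAs, 1 was higher and 1 lower in each mutant in YPD, and in YPD+Cys 3 were higher in *snf5Δ* and 0 in *snf2Δ*.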

How the data were processed

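The authors aligned paired 75 bp reads with STAR 2.7.3a to sacCer3 with Ensembl gene models and deposited raw counts per gene, which leave out reads with several places or several genes. They also deposited expected counts and TPM from RSEM 1.3.0. The expected counts were rounded before testing. Reads assigned to no gene (14.4% to 78.2% per library) were set aside.

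Counts were filtered by filterByExpr, scaled by TMM and fitted over all 18 libraries with edgeR 4.0.16 in R 4.3.3 (quasi-likelihood test, 6 groups, Benjamini-Hochberg, 0.05). Alternatives used DESeq2 1.42.0, limma 3.58.1 on log2(TPM + 1) and log2(TPM + 0.1), and other scalings and filters. The fit was tested on simulated counts. Antisense reading frames inside highly counted genes were near 0, so the counts use strand. Replicates are separate samples by the labels, but nothing says they were separate cultures, so p-values measure the spread between samples. Deviations of same-numbered libraries with and without cysteine correlated within strain (r from 0.169 to 0.796, 9 pairs), and a block was fitted. Genes named by rule are the mRNAs, the rRNAs, *RPM1*, the 3 tRNAs with most counts, genes called, and up to 3 called genes of each nuclear list. The latter were those with the largest absolute log2 fold change in a comparison. Others, and the ratios, were picked after their values were seen. The genes, lists and alternatives were chosen with earlier results of these data known.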

Additional observations from a re-analysis of the deposited data

How the results depend on the processing

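The share of mitochondrial counts kept its direction for both mutants in both media under all alternatives run. Without any 1 library the log2 ratio to wt lay between 0.54 and 0.89 for *snf2Δ* and 0.39 and 0.73 for *snf5Δ* in YPD, and between 0.61 and 0.77 and 0.40 and 0.69 in YPD+Cys. From expected counts over nuclear protein-coding genes, an alternative added after the data were seen, it was 0.84 for *snf2Δ* in YPD+Cys, against 0.67. For *snf5Δ* it was 0.35 ± 0.37 in YPD and 0.55 ± 0.28 in YPD+Cys (standard error), against 0.52 and 0.53, and for *snf2Δ* in YPD 0.69 ± 0.32, against 0.68. From the deposited counts over these genes it was 0.71 ± 0.31 for *snf2Δ* and 0.38 ± 0.31 for *snf5Δ* in YPD. In YPD+Cys it was 0.78 ± 0.18 and 0.47 ± 0.27. Relative to the counts of nuclear protein-coding genes, the *snf2Δ* and wt libraries overlapped in YPD. *snf2Δ* replicate 3 had 13.4% and wt replicate 2 had 13.8%. In YPD+Cys these strains still did not overlap on that scale.

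Counts of called genes were small and moved with most settings. In *snf2Δ* in YPD, 1 was higher and 1 lower. Higher calls numbered 6 with library totals and 0 with no low-count filter, limma at either pseudocount, only the groups compared, or without the libraries over 40% multimapping (which leaves 1 *snf2Δ* YPD library, assumed to vary like the other groups), and lay between 0 and 6 when a library was left out. Lower calls numbered 2 with no low-count filter, 2 with DESeq2, 2 with the replicate block across strains, and 0 with at least 10 counts in every library, expected counts, limma or without the libraries over 40% multimapping, and between 0 and 1 when a library was left out. In *snf5Δ* in YPD, 0 were higher and 3 lower. Higher calls numbered 5 with library totals and 3 with limma, and between 0 and 2 when a library was left out. Lower calls numbered 1 with at least 10 counts in every library, 1 with limma, 5 with DESeq2, 5 with only the groups compared and 6 with the replicate block across strains, and between 1 and 4 when a library was left out. Over all genes limma on log2(TPM + 1) called 1237 of 5722 higher. Only the groups compared gave 729 of 5606 lower, and the block across strains 1104 of 5757. In *snf2Δ* in YPD+Cys, 1 was higher. It was 7 with library totals, 4 with DESeq2, 2 with expected counts, 13 with limma, and 3 each with TMM on nuclear protein-coding genes, at least 10 counts in every library, only the groups compared and the replicate block across strains, and between 0 and 2 when a library was left out. Over all genes 419 of 5610 were higher with expected counts and 839 of 5722 with limma on log2(TPM + 1). In the settings with 3, these were 505 of 5757, 423 of 5180, 260 of 5662 and 634 of 5757, in that order. In *snf5Δ* in YPD+Cys, 0 were higher and 1 lower. Higher calls numbered 5 with library totals, 1 with expected counts and 13 with limma, and between 0 and 3 when a library was left out. Over all genes limma on log2(TPM + 1) called 3452 of 5722 higher there. Lower calls numbered 0 with library totals, at least 10 counts in every library and limma on log2(TPM + 0.1), 2 with the replicate block across strains, and between 0 and 1 when a library was left out. For cysteine the replicate block within strain gave 2 lower in *snf2Δ* and 2 in wt, against 0, and changed no other call. With limma on TPM the median of all genes moved by 0.19 to 0.81 and 65.9% to 97.1% of all calls were higher. Limma gave a value for 26 mitochondrial genes. In *snf2Δ* in YPD 655 of 6900 genes were lower with no low-count filter and 931 of 5757 with the block across strains.

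Deviations of same-numbered mutant and wt libraries had r from -0.31 to 0.39, over 0.1 in 7 of 12 pairs and negative in 4, all of replicate 1. A mutant library correlated best with the wt library of its own number in 0 of 3 (*snf2Δ*) and 1 of 3 (*snf5Δ*) cases in YPD and 1 of 3 each in YPD+Cys. Since not every pair was over 0.1, the numbers were not taken as pairs across strains. The block across strains moved lower calls in *snf5Δ* in YPD to 6, against 3. Over all 5757 genes it moved lower calls to 1104, against 865. No called gene changed sign under any alternative. *COX2*, *BI3*, *BI4*, *ATP6* and tP(UGG)Q were called in 8 of 18, 10 of 17, 13 of 18, 12 of 17 and 8 of 14 alternatives. The depth limits the tRNAs and *BI3*, at a median of 21 or fewer counts per library.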
